A study of Mus musculus with 4 samples.

Results

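The mouse allele Tc (Curtailed) is a mutation of T, also called Brachyury, and the comparison described here sets a library of whole Tc/Tc embryos against a library of whole wild-type embryos at E10. A gene was included when the deposited table for this pair listed it above 0 in 1 or both libraries and at 1 FPKM or more in 1 or both, which kept 14265 of 36808 genes. FPKM is the count of sequenced fragments of a gene corrected for transcript length and library size. The series held 4 libraries, 2 of which enter this comparison, with 1 library for each combination of genotype and stage. The embryos came from a (C3H/HeH x 101/H)F1 background, and all 4 groups shared that background. The groups were wild type at E7.5 to 8.0, Tc/Tc at E7.5 to 8.0, wild type at E10.0 to 10.5 and Tc/Tc at E10.0 to 10.5, and the stages are called E8 and E10 below. Strand-specific mRNA-seq was made from TRIzol LS total RNA, and the sources used here do not say how many embryos went into a library.

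T is the founding member of the T-box family of transcription factors. In the mouse it is active in the primitive streak, the tail bud and the notochord, where it drives the formation of mesoderm and the extension of the body axis, and it forms a feedback loop with Wnt and FGF signals. Embryos without T activity are known to fail in posterior axis elongation, notochord and allantois formation, and to die around midgestation.

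With 1 library a side there was no spread between embryos to test against, so each ratio below describes these libraries and carries no p-value or SD. Ratios are log2 of (Tc/Tc FPKM + 1) over (wild type FPKM + 1), a scale that understates the change of low genes, and a gene passed the size rule at a ratio of 1 or more in either direction, a fold of 2. An included gene listed at 0 in 1 library always passed the rule. A gene under 1 FPKM in 1 library was included only through the other, so for such genes the minimum itself favoured calls towards the higher library. The wild-type E10 library was estimated again in the deposited wild-type stage table, and over 13294 genes the SD of the log2 difference between its estimates was 0.16. Between these estimates of 1 library 439 genes passed the size rule, of which 369 were listed at 0 in 1 of them, so a value of 0 can be a failed estimate. Hoxd3 shows this, since it was listed at 0 in both libraries of the E10 table and at 22.7 FPKM for the same wild-type library in the other table. Read depth is unknown.

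The libraries differed in the kinds of RNA they held. In FPKM, the mitochondrial ribosomal RNAs mt-Rnr1 and mt-Rnr2 together summed to 1746 in wild type E8, 2135 in Tc/Tc E8, 8297 in wild type E10 and 2009 in Tc/Tc E10. The histone genes named Hist, most of whose mRNAs end in a stem-loop and not in a poly(A) tail, summed to 91.7, 74.9, 761 and 209 FPKM in the same order. The small nucleolar and Cajal body RNAs summed to 829, 2148, 4583 and 2000 FPKM. In these 3 classes wild type E10 was the highest library. Identifiers of the table that are absent from the GENCODE M21 annotation took 24.6% of the total FPKM of wild type E10 and 10.5% of that of Tc/Tc E10. Protein-coding genes took 66.8% and 81.1%. The totals of all genes were close, at 598365 and 610808 FPKM. The part of these class differences in the ratios below was not tested, but values with the protein-coding totals made equal are given where they change a list's count by more than 1.5 times, counted over members at the minimum in the deposited values. That scaling lowers a high gene's log2 ratio by 0.31. Xist was at 122 and 124 FPKM in the E10 libraries and the Y-linked Eif2s3y was listed at 0 in both, whereas Eif2s3y was at 81.0 and 116 FPKM in the E8 libraries, so the sex markers matched between the genotypes at each stage.

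**Figure D1:**
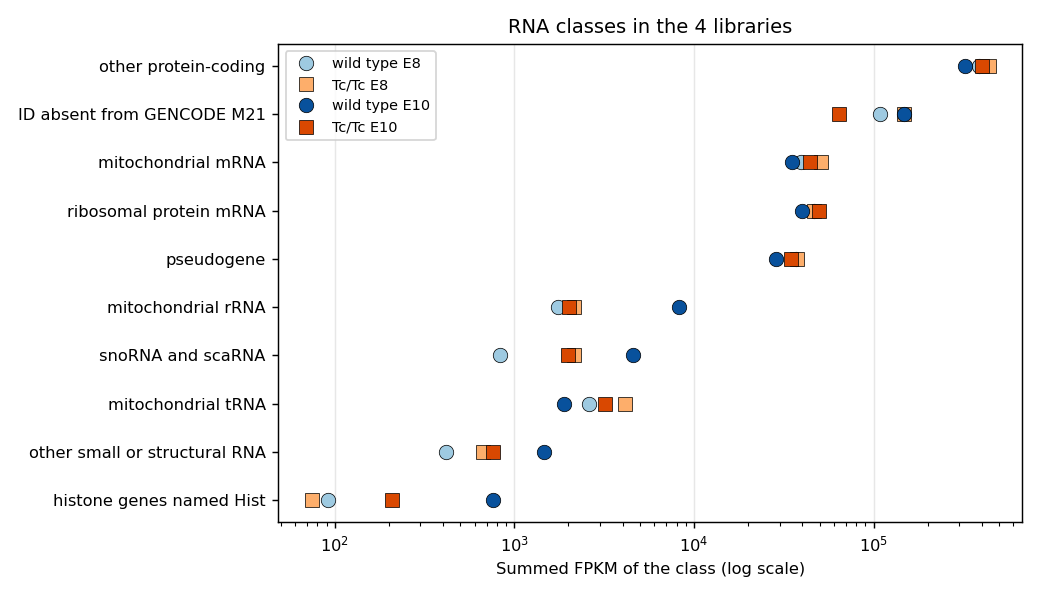
Summed FPKM of 10 RNA classes in the 4 libraries, on a log axis, with circles for wild type and squares for Tc/Tc. Wild type E10 lies above the other libraries for mitochondrial rRNA, for snoRNA and scaRNA, for other small or structural RNA and for the histone genes.

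Of the 14265 genes, 705 (4.94%) were higher in Tc/Tc and 440 (3.08%) were lower, and the median log2 ratio was 0.16. With the other estimate of wild type 5.12% of genes were higher and 4.31% lower. With both wild-type estimates 538 of 14236 genes (3.78%) were higher and 413 (2.9%) were lower. Higher genes made up 61.6% of those past the rule. Centred on the median of all genes they made up 46.2%, with 487 higher and 568 lower, and with the protein-coding totals made equal 40.6%, with 280 higher and 409 lower. Among the 11567 protein-coding genes as deposited 486 (4.2%) were higher and 233 (2.01%) were lower, with a median of 0.17, and these shares are the background for the gene lists below. Of those 233 lower genes 32 were histone genes, out of 55 measured, and no histone gene was higher. Both mitochondrial rRNAs passed the rule downwards, and 51 of 146 snoRNAs and scaRNAs were higher and 48 lower. In bulk RNA, fewer cells of a type and less RNA per cell cannot be told apart, which holds for each result that follows. The 54 gene lists held 1130 matched genes, of which 918 were measured, 135 were higher and 82 were lower.

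**Figure D2:**
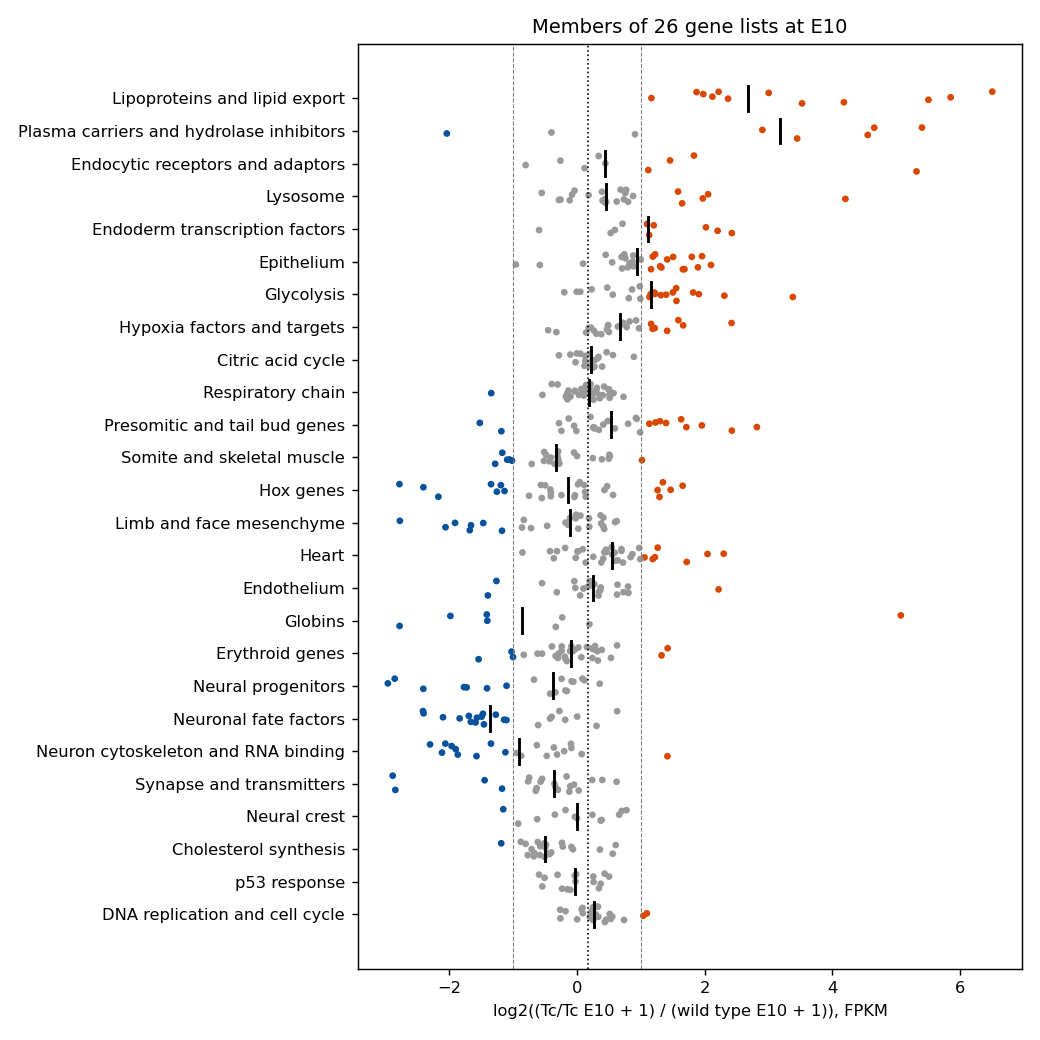
Log2 ratios of Tc/Tc over wild type at E10 for the measured members of 26 gene lists, with orange points at 1 or more, blue points at -1 or less, a black bar at each list's median, dashed lines at the size rule and a dotted line at the median of protein-coding genes (0.17). The lipoprotein members lie to the right of the upper line and most neuronal fate factors to the left of the lower one.

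T (ENSMUSG00000062327) was read in each library. It was at 36.7 FPKM in wild type E8, 48.3 in Tc/Tc E8, 7.18 in wild type E10 and 30.4 in Tc/Tc E10, and the other estimate of wild type E10 was 7.99. The Tc/Tc E10 level lay near those of both E8 libraries, and the E10 ratio was 1.94. Both alleles give reads to the same gene, so these values are no check of genotype. Of 11 T-box factors measured, T was the 1 higher gene and Tbx2 the 1 lower, at 1.75 FPKM in Tc/Tc against 4.79 (ratio -1.07). Tbx6, the paraxial mesoderm T-box factor, was at 3.60 against 1.43 FPKM (0.92), within the rule. With protein-coding totals made equal 1 T-box factor was higher and 3 were lower.

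The highest list medians were those of the plasma carriers and the lipoprotein genes. The visceral endoderm, the yolk sac layer that secretes plasma proteins for the embryo, expresses such genes. Which cells the transcripts came from was not tested. All 12 lipoprotein and lipid export genes measured were higher (median 2.68). The list held 14, of which 1 was under 1 FPKM in both libraries and 1 was listed at 0 in both. Of the 12 measured 4 were listed at 0 in wild type, so their inclusion fixed their direction. Apoa1, Apob, Apom and Soat2 were above 0 but under 1 FPKM in wild type. They were included through Tc/Tc alone, so the minimum itself favoured higher calls. Apoa1, the main protein of high-density lipoprotein, was at 0.827 FPKM in wild type against 165 in Tc/Tc (ratio 6.51). At E8 Apoa1 was at 247 FPKM in wild type against 905 in Tc/Tc, so wild type E10 was the low library of the 4. Apob, the structural protein of low-density lipoprotein, was at 0.370 and 61.3 FPKM (5.51), and Apoe, a ligand for lipoprotein receptors, at 42.1 and 345 FPKM (3.0). Apoc2, which activates lipoprotein lipase, was listed at 0 in wild type, in both estimates, and stood at 56.9 FPKM in Tc/Tc. Apom was at 0.930 and 34.0 FPKM (4.18). The genes that load lipid were also higher. Mttp, the microsomal transfer protein that assembles Apob particles, was at 2.07 FPKM in wild type against 10.2 in Tc/Tc (1.87), and Soat2, which esterifies cholesterol, at 0.394 and 5.06 (2.12). With protein-coding totals made equal the list's median was 2.53 and 12 members were still past the rule.

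Among plasma carriers and hydrolase inhibitors 5 of 8 measured were higher and 1 was lower (median 3.18). Ttr, the thyroid hormone and retinol carrier, was at 2.10 FPKM in wild type against 130 in Tc/Tc (5.41). Rbp4, the retinol-binding protein of plasma, was at 1.88 and 66.8 FPKM (4.56), and Trf, transferrin, at 2.06 and 32.4 (3.45), with 3.61 in the other estimate of wild type. These levels in Tc/Tc E10 were below those of Tc/Tc E8, where Ttr was at 592, Rbp4 at 232 and Trf at 132 FPKM. Itih2, an inter-alpha-trypsin inhibitor chain, was the lower member, at 3.68 FPKM in wild type against 0.136 in Tc/Tc (-2.04). All 5 coagulation factors measured were higher (median 1.29), with the fibrinogen chain Fgg at 0.556 and 5.0 FPKM (1.95). The list held 12, of which 5 were under 1 FPKM in both libraries and 2 were listed at 0 in both. Of the 5 measured 1 was listed at 0 in wild type. Fgg and F10 were under 1 FPKM in wild type and were included through Tc/Tc alone, so the minimum itself favoured higher calls. F10, at 0.778 and 2.60 FPKM (1.02), was within the rule with the other estimate, which left 4. With a pseudocount of 5 none of the coagulation factors passed, with a minimum of 5 FPKM 2 did, and centred on the median of all genes 3 did.

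Of 9 endocytic receptors and adaptors 4 were higher and 0 lower (median 0.44). With protein-coding totals made equal 3 were higher and 1 was lower, with a median of 0.14. Cubn, cubilin, which takes up vitamin B12 and apolipoprotein A-I, was at 0.249 FPKM in wild type against 48.9 in Tc/Tc (5.32). Lrp2, megalin, its partner receptor, was at 4.04 and 12.8 FPKM (1.46), and Amn, the membrane anchor of cubilin, was listed at 0 in wild type against 2.56 FPKM. Lrp1, a receptor that many cell types use, was within the rule, at 39.4 and 53.9 FPKM (0.44). Of 25 lysosomal genes 5 were higher and 0 lower (median 0.46), and the 5 were among the 8 proteases. Ctsh, cathepsin H, was at 1.2 and 39.6 FPKM (4.2), Ctsc at 4.28 and 20.9 (2.05), Lgmn, legumain, at 14.6 and 60.3 (1.97) and Ctsl at 69.3 and 219 (1.65). None of 10 other hydrolases (median 0.42) and none of 7 membrane or transfer proteins (median -0.04) passed the rule.

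Of 10 endoderm transcription factors measured 6 were higher and 0 lower (median 1.11), and 3 were higher with protein-coding totals made equal. Hnf4a, which drives apolipoprotein genes in liver and yolk sac, was at 0.256 FPKM in wild type against 4.78 in Tc/Tc (2.20), below both E8 libraries, at 25.9 and 29.9 FPKM. Cdx2, which also acts in the tail bud, was at 2.22 and 16.3 FPKM (2.43). Foxa2, a factor of definitive endoderm, node and floor plate, was at 3.03 and 8.28 FPKM (1.2). Nkx2-1, of the lung and thyroid endoderm and ventral forebrain, was at 1.77 and 0.831 FPKM (-0.60). Amino acid transporters had 3 of 16 higher and 0 lower (median 0.43), with Slc7a9, which carries cystine and basic amino acids, listed at 0 in wild type against 2.24 FPKM. Metal handling genes had 3 of 12 higher and 0 lower (median 0.81). The zinc importer Slc39a5 was listed at 0 against 3.44 FPKM, and Mt1, metallothionein 1, was at 28.8 and 62.0 FPKM (1.08), while none of 6 iron genes passed.

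HNF1 and HNF4 factors bind short motifs in liver and yolk sac promoters, and the bases before the start of the lipoprotein, carrier and endocytic receptor genes were searched for a core of each. RefSeq promoters (GRCm38.p6) were found for 15 of the 21 higher members. GTTAAT, on either strand, was in the 250 bases upstream of 3 of these 15 and of 7.49% of 27025 genes. CAAAGTCCA, on either strand, was in none of the 15 and in 0.451% of all genes. The absence of these letters says only that they are not in this window. The windows of Apoc2 (chr7:19677942-19678191, minus strand) and Afp, alpha-fetoprotein (chr5:90490464-90490713, plus strand), are shown because they hold GTTAAT, which is in capitals. Afp was at 8.87 FPKM in wild type against 72.9 in Tc/Tc (2.90).
Apoc2: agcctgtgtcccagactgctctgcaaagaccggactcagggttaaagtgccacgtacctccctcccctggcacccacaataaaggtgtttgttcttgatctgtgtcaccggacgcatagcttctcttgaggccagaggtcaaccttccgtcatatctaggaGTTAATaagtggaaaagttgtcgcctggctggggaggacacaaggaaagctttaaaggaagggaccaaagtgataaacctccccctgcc
Afp: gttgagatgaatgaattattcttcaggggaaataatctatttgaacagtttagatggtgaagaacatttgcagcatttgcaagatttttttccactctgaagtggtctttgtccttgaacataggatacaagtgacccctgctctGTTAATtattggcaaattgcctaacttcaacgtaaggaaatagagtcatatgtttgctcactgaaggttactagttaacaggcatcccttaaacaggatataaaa

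Markers of other tissues outside the embryo proper were few. Of 11 trophoblast genes matched, 2 reached 1 FPKM at E10, and Tpbpa and the placental lactogen gene Prl3d1 were listed at 0 in both libraries. The 2 measured were Hand1, which is also a factor of heart and extraembryonic mesoderm, at 10.6 FPKM in wild type against 46.7 in Tc/Tc (2.04), and Plac1 at 1.2 and 2.37 (0.61). Their sum was 11.8 FPKM in wild type against 49.1 in Tc/Tc. Of 7 decidua genes 4 were measured and summed to 22.2 and 59.9 FPKM, with 1 higher and 1 lower (median 0.37). The decidual prolactins Prl8a2 and Prl3c1 were listed at 0 in both libraries. The lower member was Hoxa11, at 2.10 FPKM in wild type against 0.295 in Tc/Tc (-1.26), a posterior Hox gene that is also on the Hox list below. The higher was Cryab, a small heat shock protein of heart and lens that is also on the decidua list. Cryab was at 8.54 FPKM in wild type (15.9 in the other estimate) and 45.9 in Tc/Tc (2.30). It made up most of the Tc/Tc sum of the decidua genes. Of 9 macrophage and white blood cell genes 2 were measured, with a sum of 2.78 and 3.33 FPKM.

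Glycolysis was the metabolic group with most members past the rule, 14 of 24 higher and 0 lower (median 1.16), against 4.2% of protein-coding genes. With both wild-type estimates 13 were higher, and with protein-coding totals made equal 10. Glucose uptake stood out within the group. Slc2a3, the high-affinity transporter GLUT3, was at 423 FPKM in wild type E8, 930 in Tc/Tc E8, 48.1 in wild type E10 and 511 in Tc/Tc E10 (ratio 3.38), with 64.1 in the other estimate of wild type E10. Slc2a1, GLUT1, was at 395, 444, 84.4 and 422 FPKM in the same order (2.31). For both transporters wild type E10 was the low library, and Tc/Tc E10 lay between the E8 libraries.

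Along the pathway, 6 of 8 upper enzymes, 2 of 6 lower enzymes and 3 of 4 lactate genes were higher. Pfkp, the platelet-type phosphofructokinase, was at 9.60 FPKM in wild type against 38.8 in Tc/Tc (1.91), Pfkl, the liver type, at 55.4 and 139 (1.31), and Pfkm, the muscle type, at 13.7 and 16.2 (0.23). The isozymes of this committed step therefore had unequal ratios. Aldoa, aldolase A, was at 316 and 929 FPKM (1.55), and 401 in the other estimate of wild type. Eno1, enolase 1, was at 867 and 2283 FPKM (1.40), but 1272 FPKM in the other estimate brought its ratio to 0.84, within the rule. Gapdh, at 203 and 405 FPKM (0.99), lay just under the rule, and Pkm2, the pyruvate kinase entry, at 710 and 1246 (0.81). At the end of the pathway Ldha, the lactate dehydrogenase subunit of pyruvate reduction, was at 632 and 1793 FPKM (1.5), while Ldhb was at 32.7 and 28.4 (-0.20). The lactate exporters Slc16a3 (MCT4) and Slc16a1 (MCT1) were at 22.5 and 82.0 FPKM (1.82) and at 18.1 and 55.4 (1.56). Among regulators Pdk1, a kinase that inhibits pyruvate dehydrogenase, was at 22.2 and 50.7 FPKM (1.16).

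**Figure D3:**
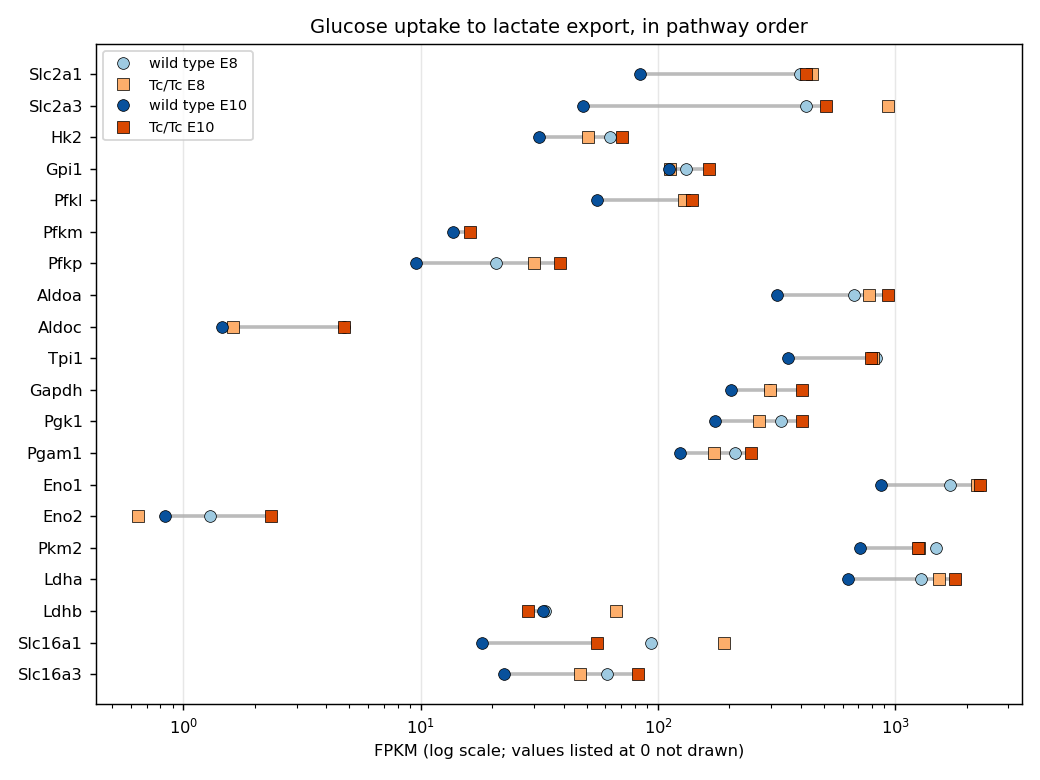
FPKM on a log axis of 20 genes from glucose uptake to lactate export in the 4 libraries, with a grey line joining wild type E10 and Tc/Tc E10. Tc/Tc E10 lies to the right of wild type E10 in each gene drawn but Ldhb, and the longest lines are those of Slc2a3 (48.1 to 511 FPKM) and Slc2a1 (84.4 to 422 FPKM).

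Genes of the hypoxia response had 7 of 26 higher and 0 lower (median 0.67), and 4 higher with protein-coding totals made equal. The higher genes included 6 of 17 targets. Bnip3, a mitophagy receptor, was at 71.1 FPKM in wild type E8, 68.7 in Tc/Tc E8, 21.1 in wild type E10 and 117 in Tc/Tc E10 (2.42), with 28.1 in the other estimate of wild type E10, so Tc/Tc E10 was the high library and wild type E10 the low one. Stc2, a secreted glycoprotein, was at 2.82 and 11.1 FPKM at E10 (1.66), Ndrg1 at 3.57 and 12.7 (1.59) and Bnip3l at 85.1 and 199 (1.22). Among the factors and oxygen sensors Egln3, an oxygen-dependent prolyl hydroxylase that is itself a target, was at 2.64 and 8.69 FPKM (1.41). Hif1a, the oxygen-regulated factor, was at 48.4 and 56.4 FPKM (0.22) and Vegfa, the angiogenic target, at 34.5 and 48.1 (0.47). The oxygen control of Hif1a acts on its protein, which these data do not measure. At E8 none of 27 hypoxia genes measured was higher and 1 was lower, and 2 of 24 glycolysis genes were higher and 1 lower.

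The hypoxia-inducible factors bind a core of ACGTG or GCGTG. Promoters were found for 18 of the 21 higher members of the glycolysis and hypoxia lists, and 16 of these held the core on either strand in the 250 bases before the start. The core was also in 21 of 25 promoters of members within the rule, and in 41.5% of all 27025 genes. The core was thus common in higher and other members alike. The windows of the 3 highest members with a single promoter entry in RefSeq (GRCm38.p6) are shown, with each match in capitals, where overlapping matches on both strands run together. They are Bnip3 with 5 matches (chr7:138909507-138909756, minus strand), Slc2a1 with 2 (chr4:119108495-119108744, plus strand) and Pfkp with 3 (chr13:6648772-6649021, minus strand).
Bnip3: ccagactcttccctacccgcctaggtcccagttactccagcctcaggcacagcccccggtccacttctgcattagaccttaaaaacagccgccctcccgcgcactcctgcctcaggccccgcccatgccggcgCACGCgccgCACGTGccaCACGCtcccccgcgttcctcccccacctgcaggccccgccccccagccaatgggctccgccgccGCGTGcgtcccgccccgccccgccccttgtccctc
Slc2a1: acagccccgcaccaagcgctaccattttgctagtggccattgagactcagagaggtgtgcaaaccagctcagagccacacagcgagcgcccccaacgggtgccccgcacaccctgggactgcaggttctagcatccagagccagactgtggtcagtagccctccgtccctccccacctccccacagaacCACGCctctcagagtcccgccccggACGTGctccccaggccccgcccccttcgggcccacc
Pfkp: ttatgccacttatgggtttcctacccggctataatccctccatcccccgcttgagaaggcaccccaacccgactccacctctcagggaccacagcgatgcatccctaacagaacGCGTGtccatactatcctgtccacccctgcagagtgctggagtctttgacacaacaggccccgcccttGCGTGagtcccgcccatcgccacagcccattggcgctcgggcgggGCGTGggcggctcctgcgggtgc

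Mitochondrial metabolism did not show the same pattern. None of 20 citric acid cycle genes passed the rule (median 0.22). Of 41 respiratory chain genes 0 were higher and 1 was lower (median 0.18). That gene was Cox5b, a subunit of cytochrome oxidase, at 93.5 FPKM in wild type E8, 114 in Tc/Tc E8, 369 in wild type E10 and 145 in Tc/Tc E10 (-1.35), so wild type E10 was the high library. The complex I subunits had a median of 0.14 over 20 genes and the complex V subunits 0.17 over 6. Of 13 glycogen and pentose phosphate genes 1 was higher, Pygl, a glycogen phosphorylase, at 4.39 and 13.6 FPKM (1.44).

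Presomitic mesoderm and tail bud genes, which hold the progenitors of the trunk and tail, had 9 of 28 higher and 2 lower (median 0.54). The transcription factors carried most of this, with 6 of 8 higher (median 1.55). Cdx4, a caudal-type factor that sets posterior identity, was at 29.7 FPKM in wild type E8, 0.574 in Tc/Tc E8, 2.99 in wild type E10 and 27.1 in Tc/Tc E10 (2.82), so the low and high genotypes changed places between stages. Cdx1 was at 0.576 and 5.12 FPKM at E10 (1.96). Msgn1, which specifies presomitic mesoderm, was at 7.90 FPKM in wild type E8, listed at 0 in Tc/Tc E8, and at 1.5 and 5.57 FPKM at E10 (1.39). Evx1, a posterior streak factor, was at 0.802 and 4.91 FPKM at E10 (1.71). Of the signals, 3 of 10 were higher, among them Fgf3, at 0.443 and 3.47 FPKM (1.63), and Cyp26a1, which clears retinoic acid from the tail bud, at 3.0 and 8.85 (1.30). The clock and boundary genes went another way, with 0 of 10 higher and 2 lower (median -0.07). Heyl was at 2.37 and 0.172 FPKM (-1.52) and Nrarp, a Notch feedback inhibitor, at 15.4 and 6.19 (-1.19), while Hes7, the oscillating repressor, was at 0.700 and 2.25 (0.93).

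Node, notochord and left-right genes had 4 of 12 higher and 0 lower (median 0.62). Dand5, a Nodal antagonist of the node, was at 0.867 FPKM in wild type against 4.87 in Tc/Tc (1.65), Lhx1 at 0.440 and 3.25 (1.56) and Tdgf1, the Nodal co-receptor Cripto, at 0.289 and 2.27 (1.34). The level of Tdgf1 in Tc/Tc E10 was close to that of wild type E8, 2.56 FPKM. Dand5, Lhx1 and Tdgf1 were under 1 FPKM in wild type E10 and were included through Tc/Tc alone, so the minimum itself favoured higher calls. The 4 higher genes became 0 with a pseudocount of 5 and 1 with a minimum of 5 FPKM.

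Hox genes are laid out in 4 clusters in the order of their use along the body axis, and their ratios differed by position. Of 30 measured 5 were higher and 7 lower (median -0.14). In paralog groups 1 to 4, 3 of 10 were higher and 0 lower. Among them Hoxb1 was at 4.25 FPKM in wild type against 13.5 in Tc/Tc (1.47) and Hoxd1 at 2.15 and 7.0 (1.34). In groups 5 to 9, 2 of 14 were higher, Hoxa7 at 11.3 and 37.6 FPKM (1.65) and Hoxc8 at 10.6 and 26.8 (1.26), and Hoxc5 was lower, at 4.91 and 1.69 (-1.14). The other estimate of wild type listed Hoxa3 to Hoxa7 at 0 and Hoxd3, Hoxd4 and Hoxd8 above 0, the reverse of their wild-type values in the E10 table. With it 9 Hox genes were higher and 10 lower, so the counts of groups 1 to 9 rest on the estimate used. In groups 10 to 13 all 6 measured were lower (median -1.76), with both estimates of the 1 wild-type library. Hoxd11 was at 9.66 and 0.547 FPKM (-2.78), Hoxd10 at 6.09 and 0.335 (-2.41) and Hoxc10 at 11.0 and 1.66 (-2.17). The 6 other genes of groups 10 to 13 did not reach 1 FPKM in either library. Hoxa11, Hoxd10, Hoxd11 and Hoxd13 were under 1 FPKM in Tc/Tc and were included through wild type alone, so the minimum itself favoured lower calls. Posterior Hoxa and Hoxd genes are also used in the limb bud, and the part of limb tissue in these values was not tested.

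Somite and skeletal muscle genes had 1 of 24 higher and 5 lower (median -0.33). Pax1, the sclerotome factor, was at 3.15 FPKM in wild type against 0.704 in Tc/Tc (-1.28), Meox2 at 4.25 and 1.33 (-1.17) and Dmrt2, which acts in the dermomyotome, at 4.33 and 1.56 (-1.06). The level of the early somite gene Meox1 was 21.6 and 16.7 FPKM (-0.35), so somite transcripts were read in both libraries. Col9a3, the 1 higher gene, was at 1.48 and 4.01 FPKM (1.02), had a 0 in the other estimate of wild type, and was within the rule with protein-coding totals made equal. Limb and face mesenchyme genes had 0 of 27 higher and 7 lower (median -0.11), and the 7 were among 23 transcription factors. Barx1, of the jaw arch and stomach mesenchyme, was at 7.94 and 0.303 FPKM (-2.78), Lhx9 at 3.75 and 0.138 (-2.06) and Dlx1 at 3.52 and 0.201 (-1.91). Other limb genes were at like levels in both libraries, with Tbx5, the forelimb factor, at 3.10 and 3.04 FPKM (-0.02) and Prrx2 at 20.3 and 20 (-0.02).

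Heart genes had 7 of 35 higher and 0 lower (median 0.55), and 5 higher and 1 lower with protein-coding totals made equal. The highest members were Cryab (2.30) and Hand1 (2.04), which are also on the decidua and trophoblast lists above. Myocd, a coactivator of muscle genes, was at 5.93 FPKM in wild type E8, 0.580 in Tc/Tc E8, 1.73 in wild type E10 and 7.98 in Tc/Tc E10 (1.72). Nkx2-5, a cardiac homeobox factor, was at 1.38 and 4.53 FPKM at E10 (1.22), and Gata5 at 2.48 and 7.36 (1.26). Myl7, the atrial light chain, was at 64.9 and 149 FPKM (1.18) and Tnnt2, cardiac troponin T, at 55.8 and 117 (1.06), whereas the ventricular light chain Myl2 was at 97.4 and 85.4 (-0.19). Of 15 genes in the sarcomere role 3 were higher, Cryab, Myl7 and Tnnt2. With protein-coding totals made equal 1 of them, Cryab, was higher. At E8 19 of 32 heart genes measured had been lower in Tc/Tc and 1 higher, with Myl7 at 5.5 FPKM against 73.3. Kidney and intermediate mesoderm genes had 4 of 15 higher and 0 lower (median 0.65), and 2 higher and 2 lower with protein-coding totals made equal. Osr1, the earliest factor of this mesoderm, was at 3.74 and 9.51 FPKM (1.15) and Sall1, of the kidney mesenchyme, at 15 and 33.9 (1.13). Both were within the rule with protein-coding totals made equal, and the highest ratio of the list was 2.02.

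Embryonic red blood cells carry globins, and 4 of 8 globin genes were lower and 1 higher (median -0.87). Hbb-y, the embryonic beta-like chain, was at 1.69 FPKM in wild type E8, 0.724 in Tc/Tc E8, 1727 in wild type E10 and 250.2 in Tc/Tc E10 (-2.78). Hba-x, the embryonic alpha-like chain, was at 2470.3 and 931 FPKM at E10 (-1.41), while Hbb-bh1, the other early beta-like chain, was at 636 and 504 (-0.33). Hba-a1 and Hba-a2, at 1226 and 459 FPKM (-1.42) and at 1158 and 292 (-1.99), are near-identical copies, so the split of reads between them is uncertain. Hbb-bh0, a globin pseudogene in the annotation used, was the higher gene, listed at 0 in wild type and at 32.7 FPKM in Tc/Tc, so that 0 globins were higher among protein-coding genes. The other red cell genes had 2 of 33 higher and 3 lower (median -0.09). All 9 membrane genes had ratios below 0 with none past the rule, and Slc4a1, the band 3 anion exchanger, was at 33.8 and 21.6 FPKM (-0.62). Of 10 regulators 1 was higher and 1 lower, and Gata1, the main erythroid factor, was at 2.88 and 3.32 FPKM (0.15). Alas2, which starts heme synthesis in red cells, lay at the edge of the rule, at 20 and 9.48 FPKM (-1.0).

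Endothelial genes had 1 of 22 higher and 2 lower (median 0.26). Etv2, the factor that starts endothelial and blood progenitor fate, was at 8.83 FPKM in wild type E8, 8.04 in Tc/Tc E8, 0.736 in wild type E10 and 7.07 in Tc/Tc E10 (2.22), so wild type E10 was the low library. Cd34 and Emcn, endomucin, surface proteins of vessels, were at 19.2 and 6.67 FPKM (-1.40) and at 15.5 and 5.88 (-1.26). None of 8 endothelial receptors passed, with Kdr, the main VEGF receptor, at 14.5 and 18.7 FPKM (0.34).

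Neuronal fate factors were the list with most lower genes. Of 22 neuronal fate factors measured 0 were higher and 14 lower (median -1.37), against 2.01% of protein-coding genes. The 14 became 0 with a pseudocount of 5 and 3 with a minimum of 5 FPKM. All 12 proneural and neuronal differentiation factors measured were lower (median -1.63), and their sum was 48.3 FPKM in wild type against 6.22 in Tc/Tc. Of 17 such factors matched, 3 were under 1 FPKM in both libraries and 2 were listed at 0 in both. Of the 12 measured 4 were listed at 0 in Tc/Tc and were included through wild type alone, which fixed their direction. The count and the sum both carry this selection. Neurod1 and Neurod4 were listed at 0 in Tc/Tc and at 4.33 and 4.30 FPKM in wild type. Nhlh2, a factor of newly formed neurons, was at 3.36 and 0.0150 FPKM (-2.10). At E8 these 3 genes were under 0.2 FPKM in both genotypes. Of 10 neuronal subtype factors 2 were lower, with Pou4f1, of sensory neurons, at 7.33 and 2.77 FPKM (-1.14), and Isl1, of motor neurons and second heart field, at 7.15 and 5.08 (-0.42), within the rule.

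Structural genes of neurons were lower in 9 of 20 and higher in 1 (median -0.91). Nefm, a neurofilament subunit, was at 21.3 FPKM in wild type against 3.51 in Tc/Tc (-2.30), Tubb3, neuronal tubulin, at 26.6 and 6.37 (-1.90), and Dcx, doublecortin of migrating neurons, at 3.29 and 0.0982 (-1.97). The RNA-binding proteins Elavl4 and Elavl3 were at 9.31 and 1.37 FPKM (-2.12) and at 5.15 and 0.682 (-1.87). Nefh, another neurofilament subunit, was the higher member, at 0.107 and 1.95 FPKM (1.42). Synapse and transmitter genes had 4 of 21 lower and 0 higher (median -0.36). Syp, a synaptic vesicle protein, was at 15.1 and 1.18 FPKM (-2.89), with 4.92 in the other estimate of wild type, and Sst, somatostatin, had 6.20 FPKM in wild type and was listed at 0 in Tc/Tc. Axon guidance and adhesion genes had 2 of 33 lower and 0 higher (median 0.09), with the receptor Epha3 at 3.14 and 0.223 FPKM (-1.76), and 4 lower with protein-coding totals made equal.

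Neural progenitor genes were split. Of 18 measured 7 were lower and 0 higher (median -0.38). Pou3f3 and Pou3f2, factors of the later neural tube, were at 11.8 and 0.632 FPKM (-2.97) and at 10.9 and 2.48 (-1.77), Fabp7, a radial glia protein, at 25.1 and 2.60 (-2.86) and Zic1, of the dorsal neural tube, at 28.1 and 4.48 (-2.41). The intermediate filament genes of progenitors, Nes and Vim, were at 42.9 and 15.5 FPKM (-1.41) and at 503 and 314 (-0.68). By contrast Pax6 was at 53.6 and 58.0 FPKM (0.11) and Sox2 at 50.5 and 37.4 (-0.42). Each of the 4 lowest genes had been under 5 FPKM in both E8 libraries, whereas Sox2 had been at 28.9 and 18.0. In the ventral neural tube Olig2, of motor neuron progenitors, was at 4.34 and 0.781 FPKM (-1.58) and Dbx1 at 5.53 and 1.19 (-1.57), while Nkx6-1 was at 5.23 and 4.46 (-0.19). Of the 8 ventral genes 1 was higher and 2 were lower, and 0 higher with protein-coding totals made equal.

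Brain region genes had 2 of 20 higher and 0 lower (median 0.05). Egr2, of hindbrain segments and neural crest, was at 3.37 FPKM in wild type E8, 0.161 in Tc/Tc E8, 0.166 in wild type E10 and 2.62 in Tc/Tc E10 (1.63), so wild type E10 and Tc/Tc E8 were the low libraries. En1, of the midbrain-hindbrain boundary, was at 2.62 and 6.33 FPKM at E10 (1.02). With protein-coding totals made equal 1 brain region gene was higher and 2 were lower. Neural crest genes had 0 of 13 higher and 1 lower (median -0.00), Sox8, at 2.08 and 0.383 FPKM (-1.16), and 2 were lower with protein-coding totals made equal. Sox10, the factor of migrating crest, was at 4.87 and 9.04 FPKM (0.78), and Ednrb at 9.17 and 4.36 (-0.92), both within the rule.

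Epithelial genes had 13 of 28 higher and 0 lower (median 0.94), and 10 higher and 1 lower with protein-coding totals made equal. The simple-epithelium keratins Krt18, Krt8 and Krt19 were at 30.2 and 115 FPKM (1.89), at 26.6 and 95.1 (1.80) and at 6.80 and 29.3 (1.96). Cdh1, E-cadherin, was at 7.15 and 25.2 FPKM (1.68), Cldn6, a tight junction protein, at 12.7 and 42.3 (1.66), and Spint1, a membrane protease inhibitor, at 3.23 and 17.1 (2.10). Yolk sac endoderm is an epithelium that expresses these genes too, and the lipoprotein list, given above, moved with them, with a sum of 49.5 FPKM in wild type against 712 in Tc/Tc. Its part in the epithelial result was not tested. Epiblast and germ cell genes had 8 of 20 higher and 0 lower (median 0.83). L1td1 was at 0.768 and 6.60 FPKM (2.10), Lin28a, an RNA-binding protein that blocks let-7, at 73.2 and 222 (1.59) and Ifitm1 at 9.64 and 35.6 (1.78). Pou5f1, the pluripotency factor Oct4, was at 18.9 FPKM in wild type E8, 125 in Tc/Tc E8, 0.184 in wild type E10 and 1.79 in Tc/Tc E10 (1.24), so both E10 libraries were far below those of E8.

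In each signalling list most members lay within the rule. The shares over all protein-coding genes were 4.2% higher and 2.01% lower. In the Wnt pathway 3 of 32 were higher and 2 lower (median 0.22), and 2 were higher and 4 lower with protein-coding totals made equal. Of the 2 lower genes Nkd2, a feedback antagonist, was at 5.79 and 1.83 FPKM (-1.26) but was listed at 0 in the other estimate of wild type, which reversed its direction (1.5), and 1 was lower with both. Sfrp5, a secreted antagonist, was at 1.26 FPKM in wild type against 7.90 in Tc/Tc (1.97), the feedback target Sp5 at 1.13 and 3.99 (1.23), and the ligand Wnt5b at 3.54 and 8.96 (1.13), while the feedback target Axin2 was at 19.6 and 26.4 (0.41). In the FGF pathway 5 of 23 were higher and 0 lower (median 0.37), 3 with both wild-type estimates, and 2 with protein-coding totals made equal. The ligand Fgf9 was at 1.06 and 3.68 FPKM (1.18), and Dusp4, a feedback phosphatase, at 6.62 and 14.4 (1.01). In the hedgehog pathway 1 of 13 was higher, Ihh, a ligand that yolk sac endoderm makes, listed at 0 in wild type against 1.37 FPKM. In the BMP pathway 2 of 21 were higher, Bmp2 at 1.37 and 4.09 FPKM (1.11) and the activin antagonist Fst at 6.89 and 15.4 (1.06), and with protein-coding totals made equal 0 were higher and 2 lower. In the retinoid pathway 2 of 18 were higher and 2 lower (median -0.01), and 5 were lower with protein-coding totals made equal. The higher genes were Rbp4 (4.56) and Cyp26a1 (1.30), given above with the plasma carriers and the tail bud signals. Aldh1a3, an enzyme of retinoic acid synthesis in eye and nose, was at 4.2 and 0.895 FPKM (-1.46) and Nr2f1, an orphan receptor, at 105 and 46.0 (-1.17).

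Matrix genes differed by type. Fibrillar collagens had 2 of 7 lower (median -0.75), with Col3a1 at 54.7 FPKM in wild type against 13.9 in Tc/Tc (-1.90) and Col11a1 at 10.6 and 3.34 (-1.42). Over all collagens 1 of 20 was higher and 4 were lower, and 0 were higher and 6 lower with protein-coding totals made equal. Laminins and nidogens had 3 of 10 higher and 0 lower (median 0.08), and 1 higher and 1 lower with protein-coding totals made equal. Lama5 was at 10.6 and 29.5 FPKM (1.40) and Lamb1 at 41.0 and 95.6 (1.2). Of 24 mesenchymal matrix genes 2 were lower and 0 higher (median -0.16), Dnm3os, the host RNA of the mir-199a and mir-214 cluster, at 8.53 and 0.0777 FPKM (-3.15), and Postn, periostin, at 54.7 and 15.7 (-1.74).

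Cholesterol synthesis genes lay below the median of all genes as a group, with 1 of 24 past the rule. That gene was Insig1, the sterol-regulated brake on the pathway, at 28.6 FPKM in wild type against 12.0 in Tc/Tc (-1.19). Ratios were below 0 in 21 of 24, with a median of -0.50. Idi1, an isomerase of the pathway, was at 34.2 and 18.1 FPKM (-0.88). With protein-coding totals made equal 5 members were lower, and the median was -0.80.

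Cell cycle genes had 2 of 26 higher and 0 lower (median 0.27), Cdc20 and Bub1, and neither was past the rule with the other estimate of wild type or with protein-coding totals made equal. None of 16 p53 response genes (median -0.03) and none of 14 apoptosis genes (median 0.18) passed. At E8 5 of the p53 response genes had been higher, and Ccng1, a p53 target, was at 19.2 FPKM in wild type E8, 78.9 in Tc/Tc E8, 16.5 in wild type E10 and 15.2 in Tc/Tc E10, so Tc/Tc E8 stood apart from the other libraries. Of 37 stress genes 2 were higher, and 1 with protein-coding totals made equal. Vldlr was at 3.47 and 11.1 FPKM (1.44), and Hspa5, an endoplasmic reticulum chaperone, at 421 and 886 (1.07), or 0.44 with the other estimate of wild type. Of 15 imprinted genes 1 was higher, Phlda2, a growth regulator of the placenta and yolk sac, at 1.13 and 25 FPKM (3.61), while H19 was at 2050.3 and 3238 (0.66) and its neighbour Igf2 at 241 and 387 (0.68). Of 12 reference genes 11 had ratios above 0, and Ywhaz, at 285 and 670 FPKM (1.23), was within the rule with the other estimate of 530 FPKM. With protein-coding totals made equal 6 of 12 were above 0 and none passed the rule.

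Outside the lists, among genes of 10 FPKM or more that the E10 table listed above 0 in both libraries, the highest ratios were those of the snoRNA Snora65, which the other estimate of wild type listed at 0, and of Car4, a membrane-bound carbonic anhydrase. Car4 was at 294 FPKM in wild type E8, 733 in Tc/Tc E8, 12.4 in wild type E10 and 245 in Tc/Tc E10 (4.2). The sulfate carrier Slc13a4 was at 0.313 and 13.9 FPKM (3.51), Tdh, threonine dehydrogenase, at 0.189 and 11.4 (3.38), and Emb, embigin, a partner of lactate transporters, at 34.6 and 188 (2.41). Each of these 4 genes was higher in Tc/Tc at E8 too. Nepn, nephrocan, was at 21.2 FPKM in wild type E8, 0.498 in Tc/Tc E8, 2.33 in wild type E10 and 14.7 in Tc/Tc E10 (2.23). Of the 15 highest genes 4 were mitochondrial transfer RNAs, with mt-Tp at 177 and 1037 FPKM (2.55), whereas mt-Tg was among the 15 lowest, at 272 and 26.5 (-3.32). S100g, a calcium-binding protein, was listed at 0 in wild type E10 and at 107 FPKM in Tc/Tc E10, against 56.6 and 98.4 at E8.

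None of the 15 lowest genes outside the lists was a protein-coding gene other than a histone gene. They were 8 snoRNAs or scaRNAs, 4 other small or structural RNAs, 1 mitochondrial transfer RNA, 1 histone gene and 1 identifier absent from GENCODE M21. The snoRNA AF357355 was at 1030.0 FPKM in wild type against 25.9 in Tc/Tc (-5.26). After these results were seen, the lowest protein-coding genes without histones were also named. Ckb, brain-type creatine kinase, was at 64.4 and 11.8 FPKM (-2.36), Serpinf1, a secreted neurotrophic and anti-angiogenic serpin, at 54.0 and 11.3 (-2.16), Tagln3, a neuronal protein, at 15.5 and 3.80 (-1.79) and Tubb2a at 42.3 and 17.4 (-1.24).

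The comparison at E8 used other libraries, and 12869 genes were measured at both stages. There 633 genes were higher at E10 and 451 at E8, of which 191 were shared, 30.2% of the E10 set and 42.4% of the E8 set. Lower genes were 222 at E10 and 368 at E8, with 44 shared, 19.8% and 12.0% of these sets. Another 36 genes were higher at E10 and lower at E8, and 20 were lower at E10 and higher at E8. At E8 571 of 13547 genes (4.21%) were higher and 407 (3%) lower. The lists differed between the stages. The lipoprotein genes were higher at both, with 10 of 12 past the rule at E8, whereas heart, Hox and presomitic genes had 19 of 32, 14 of 22 and 13 of 29 lower at E8. Among list members 16 passed the rule in opposite directions, of which 15 were lower at E8 and higher at E10.

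**Figure D4:**
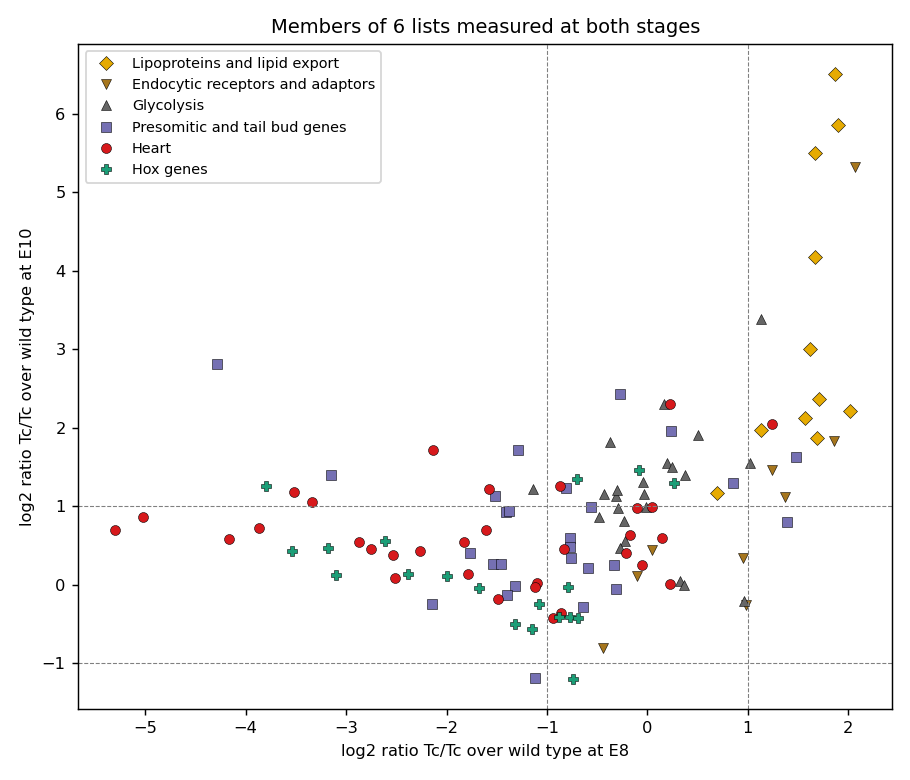
Log2 ratios of Tc/Tc over wild type at E8 (horizontal) and at E10 (vertical) for measured members of 6 lists, with dashed lines at the size rule. Lipoprotein genes lie at the upper right, while heart, Hox and presomitic genes spread along the left with E10 ratios near or above 0, and Cdx4 lies at -4.29 and 2.82.

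At the size rule itself, the list members at 10 FPKM or more just inside it were Alas2 (-1.0) and Dusp4 (1.01), and those just outside were Sall4, at 44.4 and 89.6 FPKM (1.0), and Gapdh (0.99).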

How the data were processed

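RNA from whole embryos was measured with 1 library per group, and replicate numbers here follow accession order only. Bowtie2, Cuffdiff and mouse build mm9 are named, per the submitters' processing notes, without tool versions or an annotation. The authors deposited FPKM for 36808 genes in pairwise tables, and 1 library has different values in different tables. Deposited values were used unchanged. Of the Tc/Tc stage comparison 1 column whose header and table name disagree was not used.

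Ratios used a pseudocount of 1 and a minimum of 1 FPKM, with Python 3.11.15, NumPy 2.4.6 and pandas 2.3.3, and the rule was tested on simulated data. RNA classes came from GENCODE M21 gene types, matched by identifier. In 25 genes a symbol turned into a date was restored by identifier, and 143 symbols on several genes were neither named nor used in lists. Promoter sequences came from RefSeq (GRCm38.p6), by symbol.

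The lists and their members were chosen with earlier results of these data known. Up to 4 members per list, or 10 where a list has several roles, were named by absolute ratio, and others to show the range; outside the lists, the 15 highest and 15 lowest genes of 10 FPKM or more, and genes at 20 FPKM or more listed at 0 in 1 library. Alternatives were the other wild-type estimate, other pseudocounts and minimums, scalings and a threshold of 1.5. Results of some genes are not reported here.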

Additional observations from a re-analysis of the deposited data

Results flagged for a closer look

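In 16 list members the ratio passed a fold of 2 in opposite directions at E8 and E10. Over all 12869 genes measured at both stages, 36 were lower at E8 and higher at E10, and 20 the reverse. The difference between the stages was not tested, since each group held 1 library. The log2 ratios of 15 of the 16 list members were negative at E8 and positive at E10. With protein-coding totals made equal at E10, Hoxc8, Wnt5b, En1, Osr1, Myl7 and Tnnt2 were within the rule at that stage.

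Among presomitic, node and tail bud genes Cdx4 was at -4.29 at E8 and 2.82 at E10, Evx1 at -1.29 and 1.71, Msgn1 at -3.15 and 1.39, and Tdgf1 at -1.51 and 1.34. In the Wnt list Sfrp5 was at -1.29 and 1.97 and Wnt5b at -1.51 and 1.13.

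Among heart genes Tnnt2 was at -3.34 and 1.06, Myl7 at -3.52 and 1.18, Nkx2-5 at -1.58 and 1.22, and Myocd at -2.13 and 1.72. The kidney factor Osr1 was at -2.36 and 1.15, and the Hox gene Hoxc8 at -3.80 and 1.26.

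Of the brain region genes Egr2 was at -1.91 and 1.63 and En1 at -2.50 and 1.02, and the glycolytic aldolase Aldoc was at -1.14 and 1.22. The erythroid regulator Bcl11a went the other way, at 1.39 at E8 and -1.54 at E10.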

How the results depend on the processing

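No paired analysis was possible because each group held 1 library and the replicate numbers came from accession order. The 705 higher genes became 272 with a pseudocount of 5, 274 with a threshold of 1.5 and 280 with protein-coding totals made equal. The 440 lower genes became 720 with a pseudocount of 0.1, 147 with a pseudocount of 5, 242 with a minimum of 5 FPKM, 205 with a threshold of 1.5 and 233 among protein-coding genes only. The 951 genes past the rule with both wild-type estimates became 1512 with a pseudocount of 0.1, 322 with a pseudocount of 5 and 579 with a minimum of 5 FPKM. List counts moved too. Of 108 counts, higher and lower in each list, a change of more than 1.5 times was seen in 45 with a pseudocount of 5, 46 with a threshold of 1.5, 25 with a minimum of 5 FPKM, 21 with a pseudocount of 0.1, 18 when centred on the median of all genes, 15 with the other estimate of wild type, 5 with equal totals and 2 among protein-coding genes only. With protein-coding totals made equal and the minimum applied after scaling it was 29, among them the plasma carriers, with 2 lower instead of 1. Nkd2, a Wnt antagonist, was the 1 named gene whose direction changed. Its log2 ratio was -1.26, and 1.5 with the other estimate of wild type, in which it was listed at 0. Beyond the change in what was tested or scaled, the cause was not tested. The protein-coding alternatives were chosen after seeing the data. Read depth is unknown, so counting error could not be given.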
